A study of Homo sapiens with 9 samples.

Results

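The genes described here are 35 genes of the lysosome and of autophagy, chosen by name from a list of lysosomal hydrolases, membrane proteins, subunits of the vacuolar proton pump (V-ATPase), MiT/TFE transcription factors and autophagy genes. All 35 were measured, among 18132 genes in all, and where a gene had several probe sets, the one that was brightest on average was read. RNA was measured on 9 Affymetrix PrimeView arrays from MDA-MB231 cells, a line established from a human breast cancer, grown in DMEM with serum. The control group had 0.1% DMSO vehicle (n = 4), a second group had 10 µM BB94 (n = 2) and the third had 3 µM PD325901 (n = 3), each for 24 h after a change of medium. BB94 (batimastat) blocks metalloproteinases, whereas PD325901 blocks MEK, which phosphorylates and activates ERK. Both inhibitors came from DMSO stocks, all groups were of the same cell line, and each inhibitor was tested at a single dose and time. The labels call the arrays biological replicates but do not say whether the cultures were grown on separate days, so the p-values measure the spread between these samples.

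Lysosomes are acidic compartments in which hydrolases break down proteins, sugars and lipids. The V-ATPase keeps them acidic, and membrane proteins carry ions and products across their boundary. In autophagy, a double membrane closes around cytoplasmic cargo and fuses with the lysosome, where cargo and receptor are degraded. TFEB, TFE3 and MITF are related transcription factors known to switch on many of these genes by binding a short E-box sequence in their promoters, and phosphorylation by ERK and by mTORC1 is known to hold members of the family in check. These statements are background and were not measured here.

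The E-box core, CACGTG, was looked for in RefSeq promoter windows of assembly GRCh38.p14, from 250 bases before to 50 bases after each transcript start. The core reads the same on both strands. A window was found for 29 of the 35 genes, and LAMP2, CTSB, HEXA, ATP6V1H, ATP6V1A and PSAP had none in the table used. The core was in the promoter of 8 of the 29 genes (27.6%), which were LAMP1, CTSA, CTSD, GAA, NEU1, MCOLN1, ATP6V0D1 and CLN3, against 8.77% of the 27305 genes in the table. The longer form TCACGTGA which also reads the same on both strands and contains the core, was in 6 of 29 (20.7%) against 1.18% of all genes. A match is a description of letters in a window and not a binding site. The 7 stretches of 100 bases below show the core in capitals in genes of 3 kinds under PD325901: GAA, CTSA, CTSD, NEU1 and CLN3, which rose, MCOLN1, which fell, and LAMP1, which was not called. All lie upstream of the annotated transcript start and run 5′ to 3′ on the strand of the gene. GAA is from chr17:80101481-80101580 (plus strand), CTSA from chr20:45891235-45891334 (plus), CTSD from chr11:1763928-1764027 (minus) and NEU1 from chr6:31862872-31862971 (minus). CLN3 is from chr16:28492075-28492174 (minus), MCOLN1 from chr19:7522524-7522623 (plus) and LAMP1 from chr13:113297039-113297138 (plus).
GAA: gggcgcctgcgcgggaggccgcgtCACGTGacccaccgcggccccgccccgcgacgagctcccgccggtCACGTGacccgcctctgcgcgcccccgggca
CTSA: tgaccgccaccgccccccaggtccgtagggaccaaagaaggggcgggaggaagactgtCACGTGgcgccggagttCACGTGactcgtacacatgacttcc
CTSD: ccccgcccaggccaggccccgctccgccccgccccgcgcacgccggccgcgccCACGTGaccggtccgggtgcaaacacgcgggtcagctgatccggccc
NEU1: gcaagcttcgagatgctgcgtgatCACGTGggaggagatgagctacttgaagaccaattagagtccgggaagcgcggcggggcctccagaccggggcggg
CLN3: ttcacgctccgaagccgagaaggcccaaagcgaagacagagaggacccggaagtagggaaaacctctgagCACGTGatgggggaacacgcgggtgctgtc
MCOLN1: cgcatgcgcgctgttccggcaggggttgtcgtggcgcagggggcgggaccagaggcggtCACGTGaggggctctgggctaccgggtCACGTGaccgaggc
LAMP1: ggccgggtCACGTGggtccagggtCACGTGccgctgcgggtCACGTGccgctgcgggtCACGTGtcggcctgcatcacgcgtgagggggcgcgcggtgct
The GAA and MCOLN1 stretches each hold the core at 2 places, yet GAA rose and MCOLN1 fell. The LAMP1 stretch holds it at 4 places, of 6 in the whole window. By call under PD325901, the core was in 5 of 16 matched genes that rose, 1 of 4 that fell and 2 of 9 that were not called.

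The 10 genes listed as ERK output, among them DUSP6 and SPRY4, all fell under PD325901, with a median log2 change of -3.49, and 0 of 10 were called under BB94 by limma (0 at an unadjusted p under 0.05). VIM and CD44 were far above the array background on every array, and ESR1, PGR and CDH1 were below it on every array, as the cell line is known for. Here the background is the highest of the 23 background probe sets on an array, which was between 6.02 and 6.50 on the log2 scale. Of 10 macrophage markers, 9 were below it on every array of each group, the exception being LYZ. The mean level of that list was between 4.58 and 4.88 in controls, 4.61 and 4.67 under BB94, and 4.85 and 4.97 under PD325901. Under PD325901, ITGAM was called higher but stayed below background, and LYZ fell by 0.80 on the log2 scale. CDH1 and the fibroblast marker LUM were called higher too, with log2 changes of 1.39 and 0.75, and stayed below background on every array. Of 8 fibroblast markers, 6 were below background on all control arrays and 7 on all arrays of each inhibitor group. The difference between the 3′ and 5′ probe sets of ACTB, a sign of RNA quality, was 2.96 to 3.89 in controls, 3.91 to 4.22 under BB94 and 3.50 to 4.15 under PD325901, and its part in the results was not tested. Arrays measure the RNA of the whole culture, so fewer cells in a given state and less RNA per cell cannot be told apart.

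On the values as deposited, most of these genes were called under MEK inhibition, and mainly upward. Under PD325901, 19 of the 35 rose and 4 fell against control at an adjusted p under 0.05 in limma, which is 65.7% called, where 35.1% of all 18132 genes were called. By direction, 54.3% of the 35 rose, against 22.8% of all genes, and the share of all genes that fell was 12.3%. The genes that rose with the biggest changes were CTSD, a protease of the lysosome lumen, GABARAPL1 and WIPI1, of the autophagosome membrane, and CLN3, a lysosomal membrane protein. The median log2 change of the 35 genes was 0.29, against 0.08 over all genes. Every PD325901 array was above every control array in 20 of the 35, against 25.6% of all genes, and below in 3, against 14.8%. Each PD325901 array showed the rise: its 35 genes had a median difference from the control mean of 0.32, 0.27 and 0.31. Control arrays lay between -0.11 and 0.08 and the BB94 arrays at 0.00 and -0.09. Over all genes, the same median was 0.12, 0.08 and 0.04 on the PD325901 arrays. It was between -0.07 and 0.11 on the control arrays, and 0.00 and -0.04 on the BB94 arrays.

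Where each array was centred on its own median over genes, the median of all genes moved from 0.08 to -0.17 and the 35 genes split into 10 higher and 6 lower. That is 16 of the 35 called, where 41.0% of all genes were called and 13.0% were called higher. The calls lost under this centring were CTSA, GLB1, ATP6V1H, TFEB, MITF, SQSTM1, ULK1, PSAP and GRN, and TFE3 and ATG5 were then called lower. Centring moves every gene of an array by the same amount, so it cannot change the distance of the 35 genes' median from that of all genes, 0.20. Over all the settings tried, that distance was between 0.16 and 0.32. None of the 23 called genes changed direction under any of the 21 other settings tried (TFEB was left out of one of them by the filter on dim genes), and 11 kept their call under all of them: CTSD, HEXA, GAA, GUSB, NEU1, MCOLN1, ATP6AP1, GABARAPL1, WIPI1, TPP1 and CLN3.

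**Figure D1:**
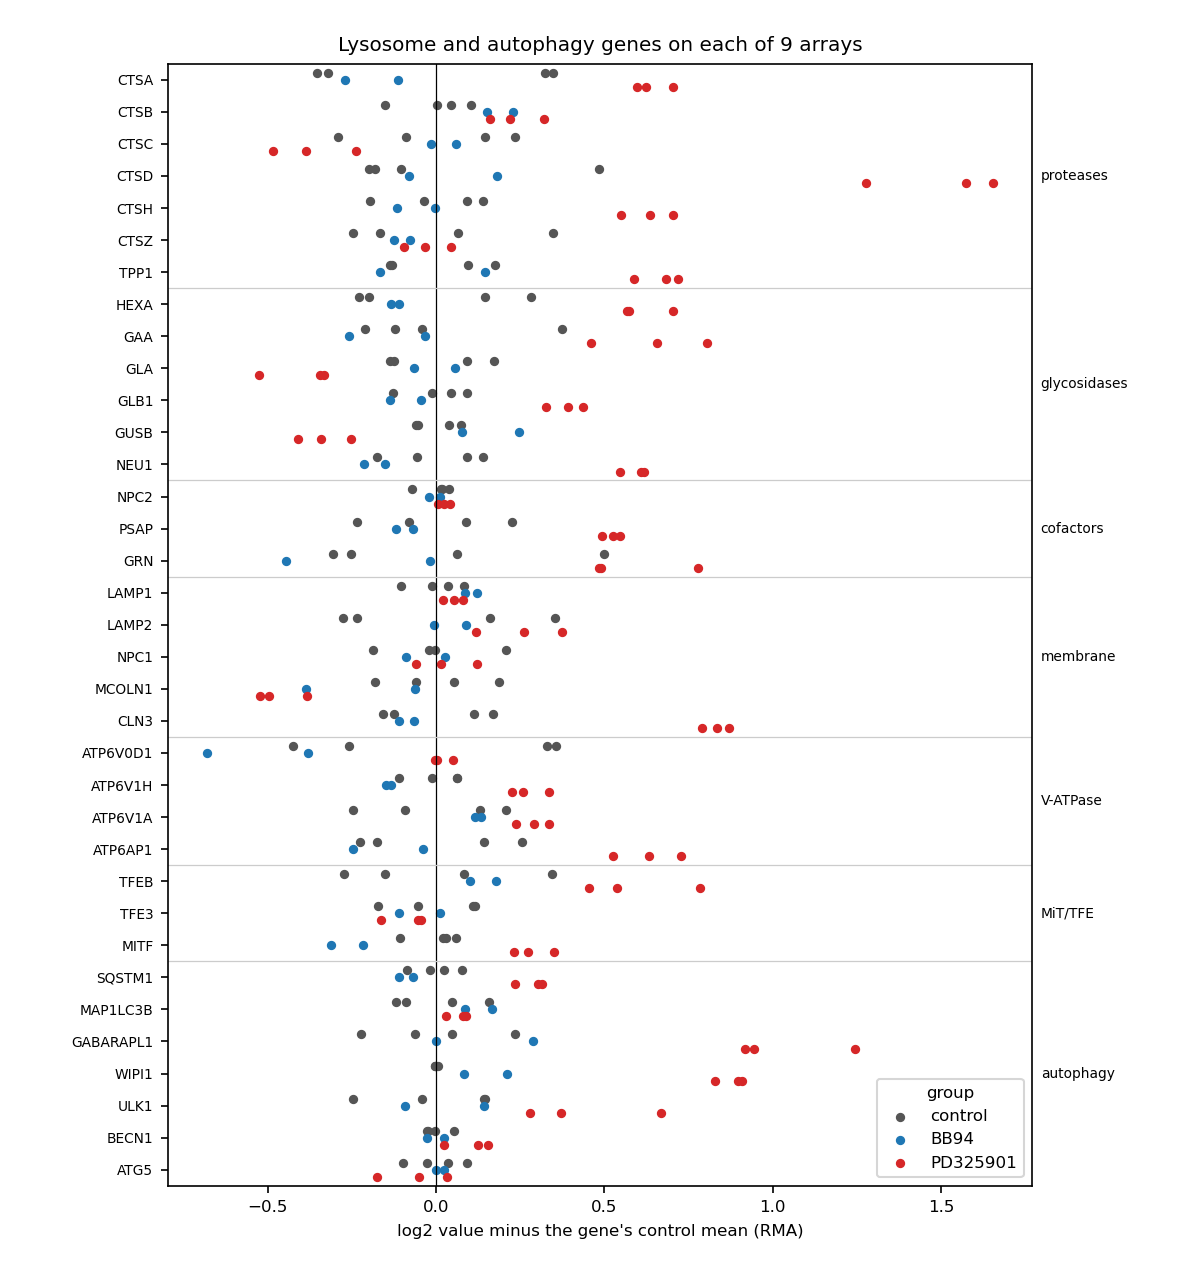
Log2 value of each of the 35 genes on each of 9 arrays, minus that gene's mean over the 4 control arrays, in RMA log2 units on the horizontal axis, with genes grouped by role. Each point is an array; the 3 PD325901 points lie to the right of all control points in 20 genes and to the left of all of them in 3.

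Of the 7 lysosomal proteases, 4 rose under PD325901 (CTSD, TPP1, CTSA and CTSH), CTSC fell, and CTSB and CTSZ were not called. CTSD, cathepsin D, the main aspartic protease of the lysosome, was at log2 values of 7.20, 7.18, 7.86 and 7.28 in the controls, 7.56 and 7.30 under BB94, and 9.03, 8.96 and 8.66 under PD325901. The PD325901 arrays lay above all the others, and control replicate 3 stood above its own group. The means were 8.88 ± 0.20 (SD, n = 3) and 7.38 ± 0.32 (SD, n = 4), a log2 change of 1.50 (SE 0.17) or 2.83-fold, with an adjusted p of 5.1e-05. CTSD was also the gene of the 35 with the biggest change.

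TPP1, a tripeptidyl peptidase lost in a childhood neuronal storage disease, was at 11.09, 11.10, 11.41 and 11.33 in the controls and 11.95, 11.91 and 11.82 under PD325901, a log2 change of 0.66 (SE 0.11) with an adjusted p of 0.00073. CTSH, cathepsin H, an aminopeptidase, rose by 0.63 (SE 0.10, adjusted p = 0.00043), from 10.22 ± 0.15 (SD, n = 4) to 10.85 ± 0.08 (SD, n = 3). CTSA, a carboxypeptidase that also protects beta-galactosidase and neuraminidase from degradation, was at 10.09, 10.12, 10.76 and 10.79 in the controls and 11.06, 11.14 and 11.03 under PD325901. Its controls divided into a low and a high pair, and even the high pair lay below all PD325901 arrays. The log2 change of CTSA was 0.64 (SE 0.18, adjusted p = 0.016), and without PD325901 replicate 2 its adjusted p was 0.0577.

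CTSC, dipeptidyl peptidase 1, which activates serine proteases of immune cells, was at 11.23, 11.32, 11.00 and 10.80 in the controls and 10.61, 10.70 and 10.85 under PD325901. The groups overlapped, since PD325901 replicate 3 was above control replicate 4. CTSC fell by 0.37 on the log2 scale (SE 0.13, adjusted p = 0.044). The call was lost when any one of 7 arrays was left out, with adjusted p from 0.0533 to 0.161. Those were all arrays but control replicate 4 and PD325901 replicate 3. The other 2 probe sets of CTSC were above background on all 9 arrays. Both were called lower in the limma fit over all probe sets, with log2 changes of -0.62 (adjusted p = 0.0021) and -0.95 (adjusted p = 4.5e-05). CTSB, cathepsin B, a cysteine protease, was higher on every PD325901 array than on any control array but its log2 change of 0.23 (95% interval 0.04 to 0.43) had an adjusted p of 0.0598, which became 0.0303 without control replicate 1. The other 3 probe sets of CTSB were each called higher, with log2 changes of 0.28, 0.49 and 0.31, and the mean of its probe sets had an adjusted p of 0.0045. CTSZ, cathepsin Z, another carboxypeptidase, had a log2 change of -0.03 (95% interval -0.32 to 0.26).

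All 6 lysosomal glycosidases were called under PD325901, 4 higher and 2 lower. GAA, the acid alpha-glucosidase that degrades glycogen, was at 7.39, 7.48, 7.98 and 7.56 in the controls and 8.41, 8.26 and 8.06 under PD325901, a log2 change of 0.64 (SE 0.14, adjusted p = 0.0051) or 1.56-fold. HEXA, the alpha subunit of beta-hexosaminidase, which degrades gangliosides, was at 9.33, 9.36, 9.70 and 9.84 against 10.26, 10.13 and 10.13, a log2 change of 0.61 (SE 0.13, adjusted p = 0.0031). NEU1, the lysosomal neuraminidase, was at 10.78, 10.90, 11.10 and 11.05 against 11.57, 11.58 and 11.50, a log2 change of 0.59 (SE 0.09, adjusted p = 0.00044). In these 3 genes no PD325901 array came as low as any control array. GLB1, beta-galactosidase, rose by 0.38 (SE 0.08, adjusted p = 0.0035), from 10.85 ± 0.09 (SD, n = 4) to 11.23 ± 0.05 (SD, n = 3). NEU1, GLB1 and CTSA, whose proteins are known to form a complex in the lysosome, thus all rose on the values as deposited. With arrays centred over genes, GLB1 (0.13, adjusted p = 0.273) and CTSA (0.39, adjusted p = 0.0819) were not called.

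The glycosidases that fell were GLA, alpha-galactosidase A, the enzyme missing in Fabry disease, and GUSB, beta-glucuronidase. GLA was at 11.73, 11.72, 11.95 and 12.03 in the controls, 11.91 and 11.79 under BB94, and 11.51, 11.52 and 11.33 under PD325901, so that the PD325901 arrays were the lowest of the 9. It fell by 0.40 (SE 0.10, adjusted p = 0.01) on the log2 scale, and its adjusted p was 0.0539 without PD325901 replicate 3. GUSB was at 11.57, 11.47, 11.60 and 11.48 in the controls, 11.78 and 11.61 under BB94, and 11.28, 11.19 and 11.12 under PD325901, again the lowest of all. It fell by 0.34 (SE 0.08, adjusted p = 0.0085) on the log2 scale. GUSB is often used as a reference gene in expression assays.

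Of the 3 soluble cofactors and carriers, PSAP and GRN rose and NPC2 was not called. PSAP, the precursor of the saposins that present lipids to the hydrolases, was at 12.53, 12.69, 12.86 and 12.99 in the controls and 13.26, 13.29 and 13.31 under PD325901, a log2 change of 0.52 (SE 0.11, adjusted p = 0.003). GRN, progranulin, which is delivered to the lysosome together with prosaposin, was at 8.60, 8.65, 9.40 and 8.96 in the controls and 9.68, 9.39 and 9.39 under PD325901. The GRN groups overlapped, because control replicate 3 was above 2 of the PD325901 arrays. Its log2 change was 0.58 (SE 0.19, adjusted p = 0.035), and the call was lost when control replicate 1, 2 or 4 or any PD325901 array was left out, with adjusted p from 0.0566 to 0.138. NPC2, which hands cholesterol to NPC1, was at 13.41 ± 0.05 (SD, n = 4) and 13.44 ± 0.02 (SD, n = 3), and the 95% interval of its log2 change was -0.13 to 0.18.

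**Figure D2:**
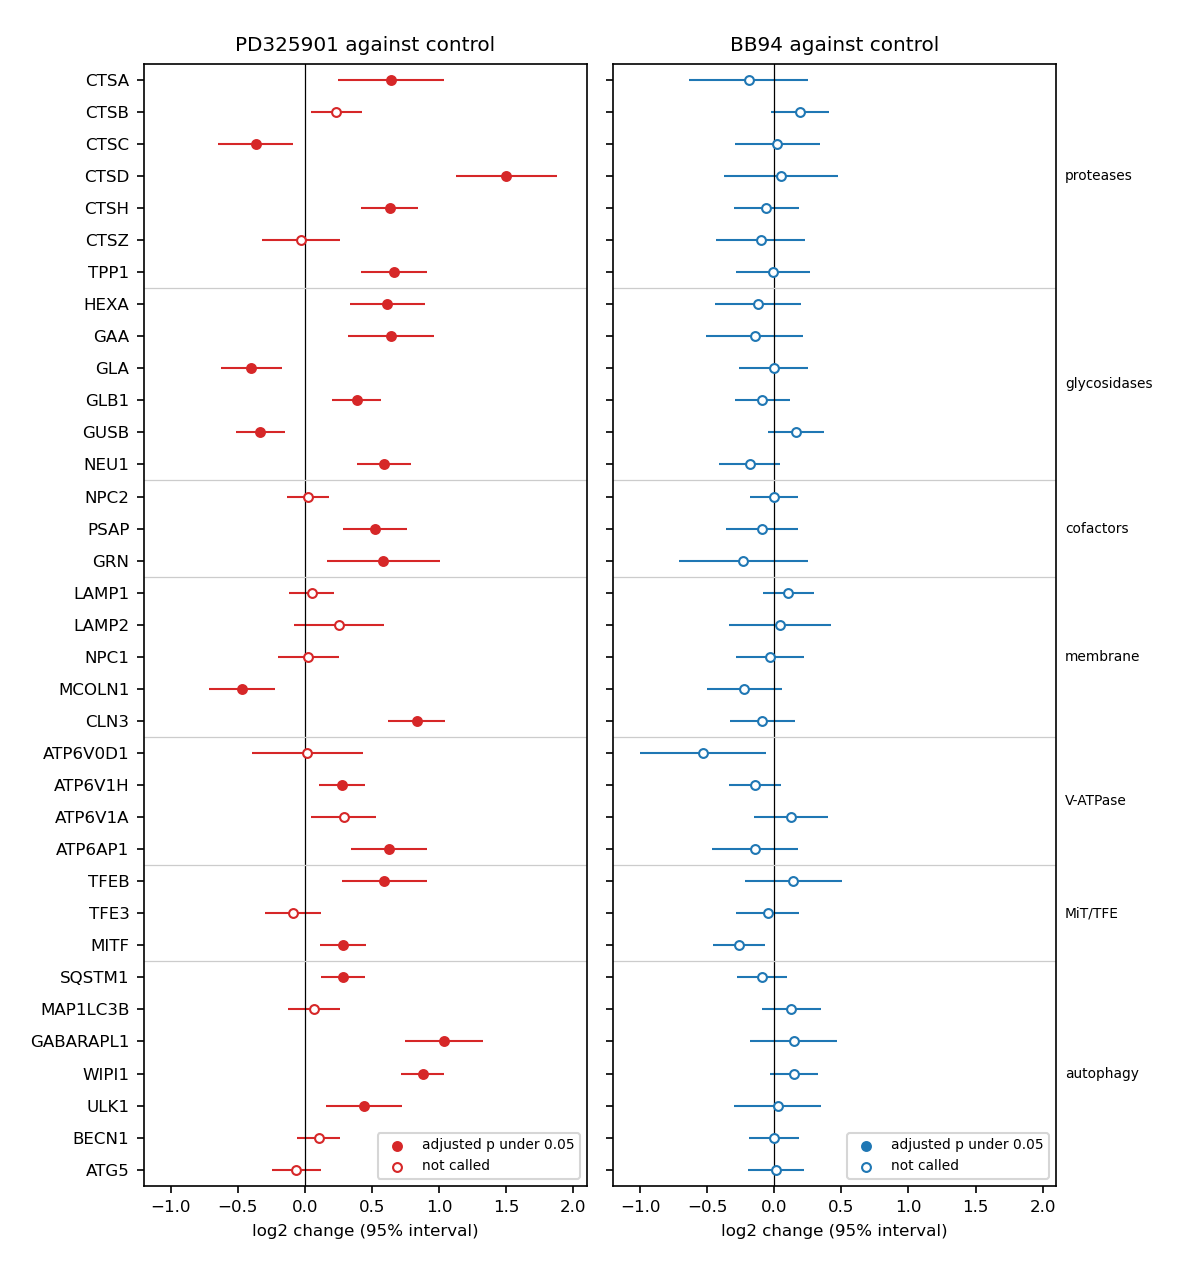
Log2 change of each gene against control with its 95% interval from limma, for PD325901 on the left and BB94 on the right, with filled points for an adjusted p under 0.05. The left panel has 23 filled points, 19 to the right of 0 and 4 to the left, and the right panel has 0.

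Among the 5 lysosomal membrane proteins, CLN3 rose, MCOLN1 fell, and LAMP1, LAMP2 and NPC1 were not called. CLN3, whose loss causes juvenile neuronal ceroid lipofuscinosis, was at 7.36, 7.39, 7.69 and 7.63 in the controls, 7.40 and 7.45 under BB94, and 8.35, 8.39 and 8.30 under PD325901. The 3 PD325901 arrays were close together and clear of the rest. Its log2 change was 0.83 (SE 0.10), or 1.78-fold, with an adjusted p of 6.4e-05. The probe sets of CLN3 above background on any array had probes that may also bind other transcripts. MCOLN1, the calcium channel that releases calcium from the lysosome, was at 7.34, 7.46, 7.58 and 7.71 in the controls, 7.46 and 7.14 under BB94, and 7.025, 7.001 and 7.141 under PD325901. It fell by 0.47 (SE 0.11) on the log2 scale, with an adjusted p of 0.0071, and BB94 replicate 2 was as low as the highest PD325901 array.

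LAMP1, a heavily glycosylated protein that lines the lysosomal membrane, was at 13.97, 14.07, 14.16 and 14.11 in the controls, 14.16 and 14.20 under BB94, and 14.13, 14.10 and 14.16 under PD325901. PD325901 and control overlapped, and both BB94 arrays lay slightly above them. The 95% interval of its log2 change under PD325901 was -0.12 to 0.22. NPC1, which exports cholesterol, had a log2 change of 0.03 (95% interval -0.20 to 0.25). LAMP2, the partner of LAMP1, was at 11.48, 11.28, 10.85 and 10.89 in the controls and 11.38, 11.24 and 11.50 under PD325901, with an adjusted p of 0.24. Here control replicates 1 and 2 were in the range of the PD325901 arrays and replicates 3 and 4 were below it, and without control replicate 1 the adjusted p was 0.0356. Of the 9 LAMP2 probe sets, 5 were called higher when each probe set was tested on its own, with log2 changes of up to 0.98, and the one read here was not among them.

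Of the 4 V-ATPase subunits, ATP6AP1 and ATP6V1H rose, and ATP6V1A and ATP6V0D1 were not called. ATP6AP1, an accessory subunit needed for assembly of the pump, was at 9.05, 9.10, 9.42 and 9.53 in the controls and 10.01, 9.91 and 9.80 under PD325901, a log2 change of 0.63 (SE 0.13, adjusted p = 0.0028). ATP6V1H, a regulatory subunit of the cytosolic part, was at 10.62 ± 0.08 (SD, n = 4) and 10.89 ± 0.06 (SD, n = 3), a log2 change of 0.27 (SE 0.08, adjusted p = 0.018). Its adjusted p was 0.0525 without PD325901 replicate 1 and 0.0874 without PD325901 replicate 2. ATP6V1A, the catalytic subunit, was higher on every PD325901 array than on any control array, with a log2 change of 0.29 (95% interval 0.04 to 0.53) and an adjusted p of 0.0681, which was 0.0166 without control replicate 1. Its other 4 probe sets, all above background on the 9 arrays, had log2 changes of -0.06, -0.09, -0.15 and -0.29, none of them called, and the mean of its probe sets had a change of -0.06 (adjusted p = 0.76).

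ATP6V0D1, a subunit that joins the membrane and cytosolic parts of the pump, was at 9.88, 10.05, 10.66 and 10.64 in the controls, 9.93 and 9.63 under BB94, and 10.31, 10.36 and 10.31 under PD325901. The PD325901 arrays lay between the low and the high pair of controls. Its log2 change was 0.02 (95% interval -0.40 to 0.43). Against control replicates 1 and 2 alone it was 0.36 (adjusted p = 0.029), and against replicates 3 and 4 alone it was -0.32 (adjusted p = 0.0256), so that which controls were used turned its direction.

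Of the 3 MiT/TFE factors, MITF and TFEB were called higher under PD325901 and TFE3 was not called. MITF, the family member known from pigment cells, was at 11.77, 11.74, 11.73 and 11.61 in the controls, 11.50 and 11.40 under BB94, and 12.07, 11.99 and 11.95 under PD325901. The 3 groups did not overlap: BB94 was lowest, the controls lay between and PD325901 was highest. Under PD325901 it rose by 0.29 (SE 0.08, adjusted p = 0.015), and its adjusted p was 0.0722 without PD325901 replicate 1. The other probe set of MITF, above background on all control and PD325901 arrays, had a log2 change of -0.17 and was not called. TFEB was below the array background on all 9 arrays, at 4.98, 4.72, 4.49 and 4.37 in the controls and 5.42, 5.18 and 5.10 under PD325901. Its adjusted p was 0.008 and the PD325901 arrays were the highest, but no fold is given because both groups were not well above background. TFE3 was at 6.81 ± 0.14 (SD, n = 4) and 6.72 ± 0.07 (SD, n = 3), and the 95% interval of its log2 change was -0.29 to 0.12.

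Among the 7 autophagy genes, GABARAPL1, WIPI1, ULK1 and SQSTM1 rose, and MAP1LC3B, BECN1 and ATG5 were not called. GABARAPL1, an ATG8 family protein that is coupled to the autophagosome membrane, was at 7.25, 7.41, 7.52 and 7.71 in the controls, 7.76 and 7.47 under BB94, and 8.39, 8.72 and 8.42 under PD325901. The lowest PD325901 array was above the highest of the other groups. Its means were 8.51 ± 0.18 (SD, n = 3) and 7.47 ± 0.19 (SD, n = 4), a log2 change of 1.04 (SE 0.13) or 2.05-fold, with an adjusted p of 0.00011. The other 3 probe sets of GABARAPL1 were below background on all 9 arrays and were not called. The rise thus rests on the probe set read, whose probes may also bind other transcripts.

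WIPI1, which binds the lipid that marks sites of autophagosome formation, was at 9.85, 9.86, 9.85 and 9.85 in the controls, 10.06 and 9.94 under BB94, and 10.68, 10.76 and 10.75 under PD325901. The controls agreed closely, with an SD of 0.0043, and the BB94 arrays lay slightly above them. The log2 change under PD325901 was 0.88 (SE 0.07), or 1.84-fold, with an adjusted p of 5.1e-06, the lowest among the 35 genes.

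ULK1, the kinase that starts autophagy, was at 7.17, 6.99, 7.18 and 6.79 in the controls and 7.70, 7.40 and 7.31 under PD325901, a log2 change of 0.44 (SE 0.13, adjusted p = 0.021). Its adjusted p was 0.0505 without control replicate 2 and 0.106 without PD325901 replicate 1. SQSTM1, the cargo receptor p62, was at 13.10, 13.05, 13.00 and 12.94 in the controls and 13.32, 13.26 and 13.34 under PD325901, a log2 change of 0.28 (SE 0.07, adjusted p = 0.012), and its adjusted p was 0.0502 without PD325901 replicate 3. MAP1LC3B, the best known ATG8 protein, had a log2 change of 0.07 (95% interval -0.13 to 0.26). BECN1, of the lipid kinase complex that starts the membrane, had a log2 change of 0.10 (95% interval -0.06 to 0.26), and ATG5, of the machinery that couples ATG8 proteins to lipid, had one of -0.06 (95% interval -0.25 to 0.12).

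**Figure D3:**
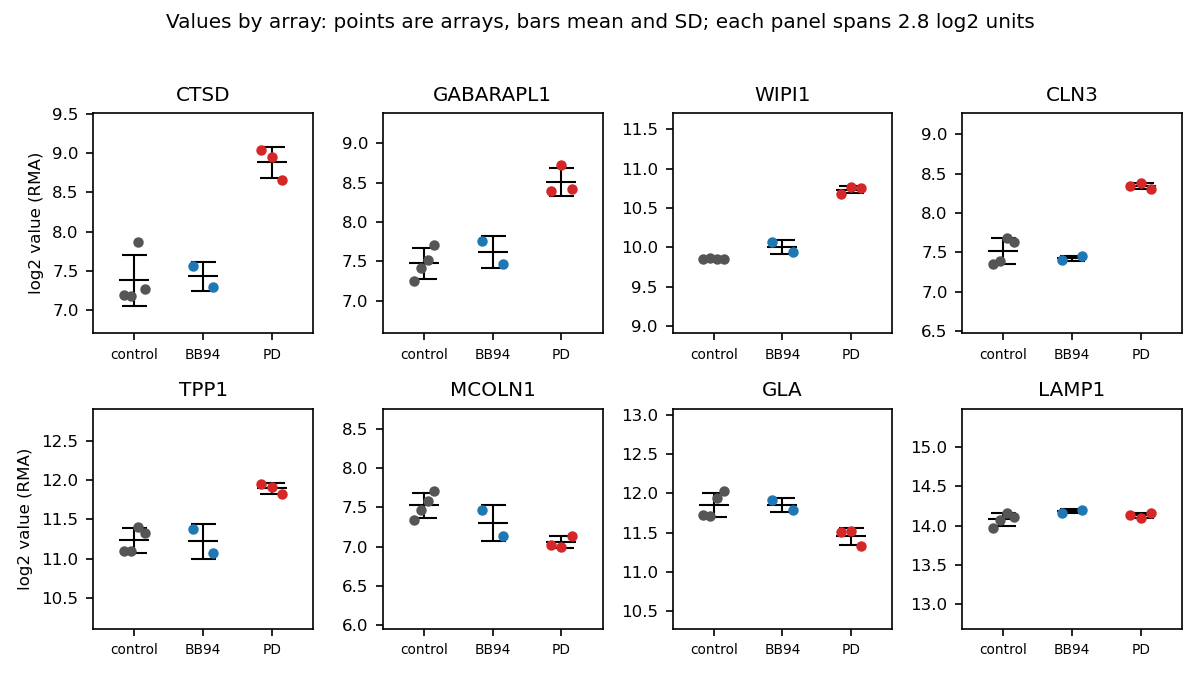
Log2 values (RMA) of 8 genes by group, with each point an array, the wide tick the mean and the error bar the SD; each panel has its own axis spanning the same number of log2 units. CTSD, GABARAPL1, WIPI1, CLN3 and TPP1 are higher on all 3 PD325901 arrays than on any other array, MCOLN1 and GLA are low under PD325901, and LAMP1 overlaps between PD325901 and control, with both BB94 arrays slightly above them.

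The control arrays divided in a way that these genes shared. Replicates 3 and 4 were both above replicates 1 and 2 in 22 of the 35 genes and both below in 9, whereas over all 18132 genes they were above in 3809 and below in 7448. Among the 19 genes that rose under PD325901, replicates 3 and 4 were above in 14 and the median difference between the pairs was 0.27. The biggest differences upward were in ATP6V0D1 (0.68), CTSA (0.67) and GRN (0.56), and the biggest downward was in LAMP2 (-0.51). No batch or date was in the labels, and the part of this division in the results was not tested beyond the values given. Against control replicates 1 and 2 alone, 23 of the 35 genes were called under PD325901, where 36.9% of all genes were called. Against replicates 3 and 4 alone 25 were called, where the share of all genes was 46.0%.

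Most of the called genes had a second probe set to compare. Of the 23 genes called under PD325901, 19 had more than 1 probe set, and in 13 of these another probe set was called in the same direction. None of the 35 genes had a probe set called in the direction opposite to the one read. All 3 probe sets of CTSD, all 5 of SQSTM1 and all 4 of PSAP were called higher, and all 3 of GLA were called lower. TPP1 had 7 of 9 called higher, and HEXA and CLN3 had 6 of 8 each. In each of these genes, the sets called included at least 1 that was below background on all 9 arrays. SQSTM1 probe sets ranged from 0.28 to 0.87 in log2 change, so the probe set read here gave the smallest. For CTSH, TFEB and MITF the mean of all probe sets was not called, with adjusted p of 0.181, 0.103 and 0.663. The second probe set of CTSH was below background on all 9 arrays.

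**Figure D4:**
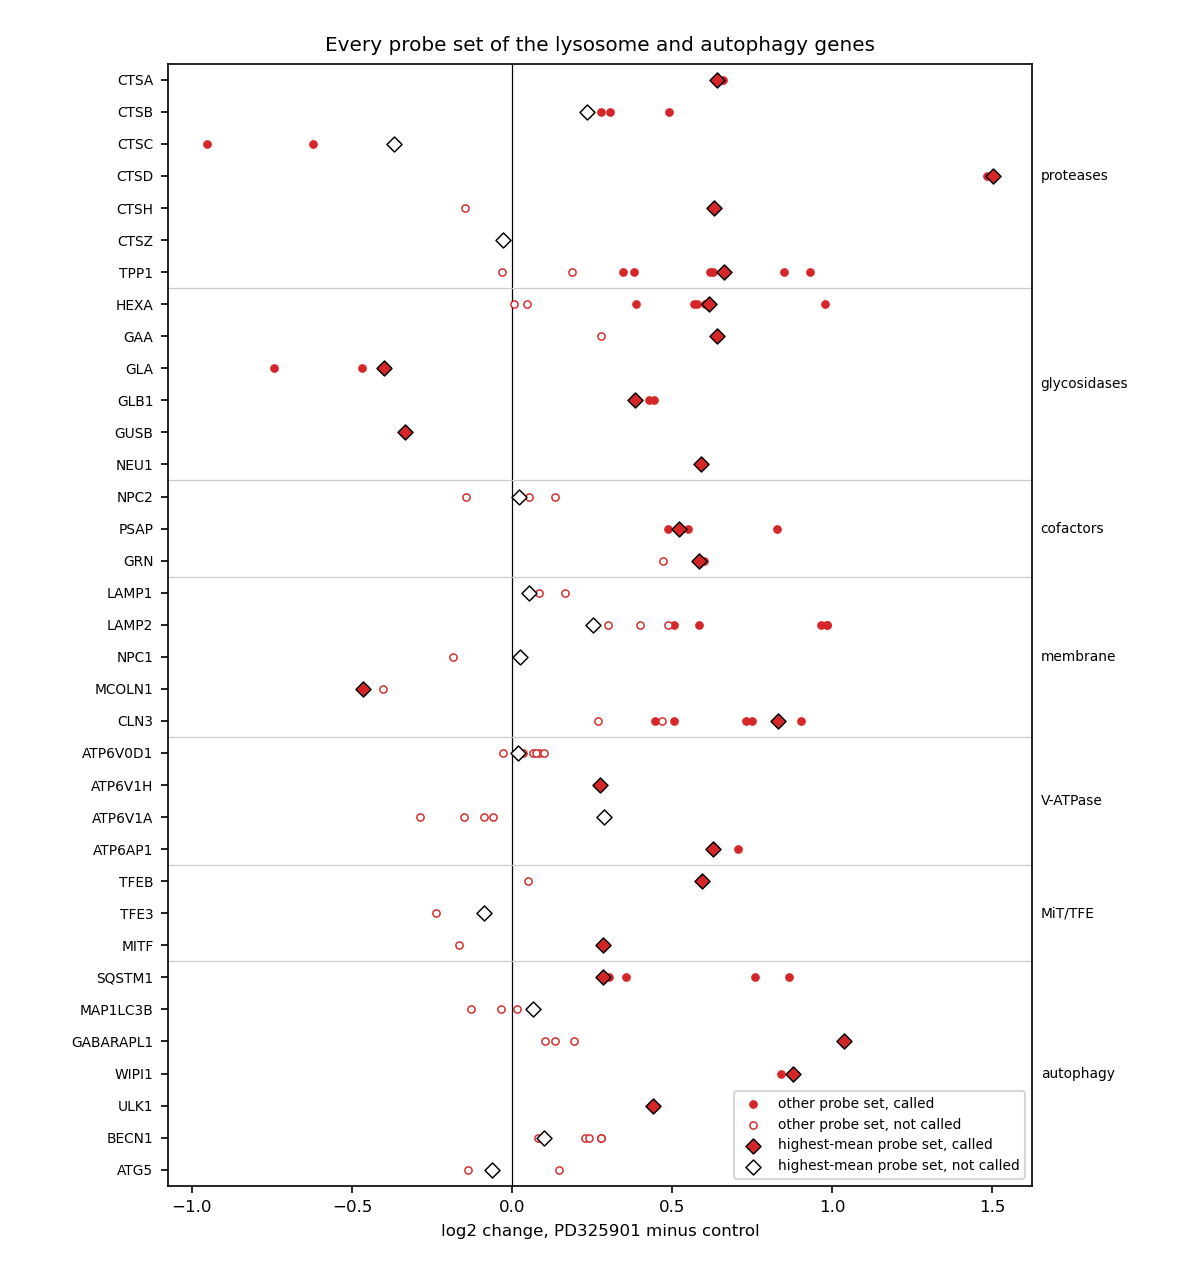
Log2 change under PD325901 against control for every probe set of the 35 genes, with the probe set of highest mean as a diamond and the others as circles, filled where the adjusted p over all probe sets was under 0.05. CTSD, GLB1, PSAP and GLA show close or same-sided probe sets, while GABARAPL1 shows 1 called set and 3 near 0 that were below background, and the CTSC diamond is open because its adjusted p was 0.0515 in this fit.

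Under BB94, 0 of the 35 genes passed an adjusted p under 0.05 in limma, where 1.58% of all genes were called (0.491% higher and 1.09% lower). At an unadjusted p under 0.05 there were 2, MITF and ATP6V0D1, or 5.71%, against 10.9% of all genes. The median log2 change of the 35 genes was -0.03, against -0.02 over all genes. Both BB94 arrays lay above all controls in 4 genes (LAMP1, CTSB, GUSB and WIPI1), against 6.35% of all genes, and below all controls in 2 (ATP6V1H and MITF), against 11.0%. MITF had a log2 change of -0.26 (SE 0.09, adjusted p = 0.26), and ATP6V0D1 had one of -0.53 (SE 0.21, adjusted p = 0.38). With 2 arrays the intervals were wide: for CTSD the 95% interval under BB94 was -0.38 to 0.48, for WIPI1 it was -0.03 to 0.33 and for LAMP1 it was -0.09 to 0.29.

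A second probe set of MITF, named here after its values were seen, did change under BB94. It was at 7.05, 7.28, 6.86 and 7.60 in the controls, 5.76 and 5.88 under BB94, and 6.81, 7.17 and 7.10 under PD325901. Both BB94 arrays were below the array background, while the other 7 arrays were above it. In the fit over all probe sets its log2 change was -1.38 (SE 0.18, adjusted p = 0.0049), and controls were at least 1.93-fold higher than BB94, a bound because BB94 was below background. It was the only probe set of the 35 genes called under BB94. By the probe set read for each gene, 1.5% of all 18132 genes were called in the same fit. For ATP6V1A, also named after its values were seen, the probe set read had a log2 change of 0.12 under BB94. Its other probe sets had -0.87, -0.83, -0.68 and -0.43, with both BB94 arrays below every control array. None of these was called, with adjusted p from 0.081 to 0.34 in the same fit.

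PD325901 and BB94 were also compared with each other, at their different doses of 3 µM and 10 µM and in the same fit. Of the 35 genes, 17 were higher under PD325901 and 2 were lower (GLA and GUSB), which is 54.3% called, where 31.2% of all genes were called (21.0% higher and 10.2% lower). All PD325901 arrays lay above both BB94 arrays in 22 genes, against 40.7% of all genes, and below in 4, against 20.1%. The median log2 difference was 0.42, against 0.11 over all genes. The split depended on scaling: it was 9 higher and 8 lower with arrays centred over genes, where 38.7% of all genes were called and 11.0% were higher. It was 13 and 4 with arrays centred over probe sets (33.1% of all genes called, 13.6% higher), and 17 and 5 after cyclic loess (31.5% called, 16.8% higher). CTSD was higher by 1.45 (SE 0.20, adjusted p = 0.00029), CLN3 by 0.92 (SE 0.12, adjusted p = 0.00014), GABARAPL1 by 0.89 (SE 0.16, adjusted p = 0.0012) and WIPI1 by 0.73 (SE 0.09, adjusted p = 8.9e-05). MITF differed by 0.55 (SE 0.09, adjusted p = 0.001), where its change against control had been 0.29. GUSB was lower under PD325901 by a log2 difference of -0.50 (SE 0.10, adjusted p = 0.0028).

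The genes called against control but not against BB94 were TFEB (adjusted p = 0.0723), ULK1 (0.0666), CTSC (0.076) and MCOLN1 (0.209). For MCOLN1 the 95% interval of the difference between the inhibitors was -0.54 to 0.05. The PD325901 arrays are shared by both comparisons. Calls against BB94 that were lost without an array were GLA (5 arrays, each of the inhibitor groups, adjusted p from 0.0513 to 0.183), GRN (0.187 without BB94 replicate 2 and 0.0647 without PD325901 replicate 1) and SQSTM1 (0.0602 without BB94 replicate 1). Without BB94 replicate 2 the adjusted p was 0.0964 for CTSA and 0.0642 for GAA. TFEB was called without control replicate 1 or 4, ATP6V0D1 without control replicate 1, and CTSC and ULK1 without control replicate 4.

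The wider pathway was read from 7 other lists, with 192 genes, of which 179 were measured by a probe set of 1 gene. Under PD325901, 80 of the 179 rose (44.7%, against 22.8% of all genes) and 8 fell (4.47%, against 12.3%). That is 49.2% called, against 35.1% of all genes, and the median log2 change was 0.23, against 0.08. Under BB94, 0 of 179 were called by limma and 17 had an unadjusted p under 0.05, or 9.5%, against 10.9% of all genes. Between the inhibitors, 72 of the 179 were higher under PD325901 (40.2%, against 21.0% of all genes) and 5 were lower (2.79%, against 10.2%). These lists were chosen with earlier results of the same arrays known, and their counts are a description.

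Hydrolases and their cofactors had the highest share of calls under PD325901: of 36 further genes, 24 rose and 1 fell, with a median log2 change of 0.57. CTSO, a cysteine cathepsin, was at 7.47, 7.26, 6.91 and 7.07 in the controls and 9.08, 9.24 and 9.35 under PD325901, a log2 change of 2.04 (SE 0.13, adjusted p = 9.8e-07), which was more than that of CTSD. DNASE2, the acid nuclease of the lysosome, rose by 1.30 (SE 0.13), and HGSNAT, which acetylates heparan sulfate for its breakdown, rose by 1.07 (SE 0.14). Of 26 further lysosomal membrane proteins, 9 rose and 3 fell, with a median of 0.16. SLC29A3, a nucleoside transporter of the lysosome, was between 8.90 and 9.03 in the controls and at 10.87, 10.93 and 10.84 under PD325901, a log2 change of 1.91 (SE 0.07, adjusted p = 3.5e-08). SIDT2, which takes nucleic acids into the lysosome, rose by 1.11 (SE 0.09), while ATP13A2, a polyamine pump, fell by 1.04 (SE 0.19). Calls in both directions, seen for CLN3 and MCOLN1, were thus present among other membrane proteins too. They were also present among all genes, where 22.8% rose and 12.3% fell.

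Of 19 further V-ATPase subunits, 7 rose and 0 fell, with a median of 0.04. That is 36.8% called, near the 35.1% of all genes. ATP6V1G2 was at least 2.50-fold higher, where 1 control array was below background, and ATP6V1E2 rose by 0.63 (SE 0.13). Another subunit taken by the rule, ATP6V0D2, was below background in both groups, so no fold is given for it. Of 24 genes of nutrient sensing at the lysosome, 10 rose and 0 fell, with a median of 0.28. RRAGB and RRAGC, small GTPases that bring mTORC1 to the lysosome, rose by 1.29 (SE 0.09) and 0.69 (SE 0.10). ZKSCAN3, a zinc finger repressor of autophagy genes, was at least 1.79-fold higher, where 1 control array was below background. Of 18 genes of sorting and fusion, 8 rose and 0 fell, with a median of 0.23. VPS39 and VPS41, which belong to the HOPS tether that joins autophagosomes and endosomes to lysosomes, rose by 1.33 (SE 0.12) and 0.94 (SE 0.08), and VPS11, a core subunit of the same tether, rose by 0.68 (SE 0.09).

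Of 40 further genes of the autophagy machinery, 12 rose and 3 fell, with a median of 0.12. That is 37.5% called, near the 35.1% of all genes. MAP1LC3C, another ATG8 protein, was at least 2.52-fold higher under PD325901, where 3 control arrays were below background. ATG14, which directs the lipid kinase complex to the site of autophagosome formation, rose by 0.69 (SE 0.11). ULK2, the relative of ULK1, was called but below background in both groups. Of 16 further autophagy receptors, 10 rose and 1 fell, with a median of 0.34. OPTN, the receptor optineurin, was at 10.91, 10.93, 11.14 and 11.18 in the controls and 12.14, 12.23 and 12.13 under PD325901, a log2 change of 1.13 (SE 0.09, adjusted p = 4.6e-06). RETREG1, a receptor for the endoplasmic reticulum, rose by 1.12 (SE 0.11), and CALCOCO2, a receptor for bacteria and mitochondria, rose by 0.61 (SE 0.08). The machinery and membrane lists thus had the shares of higher calls nearest to that of all genes, at 30.0% and 34.6% against 22.8%. Hydrolases and receptors had the highest, at 66.7% and 62.5%. By calls in either direction, nutrient sensing was at 41.7%, sorting and fusion at 44.4% and membrane proteins at 46.2%. Receptors were at 68.8% and hydrolases at 69.4%, against 35.1% of all genes.

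**Figure D5:**
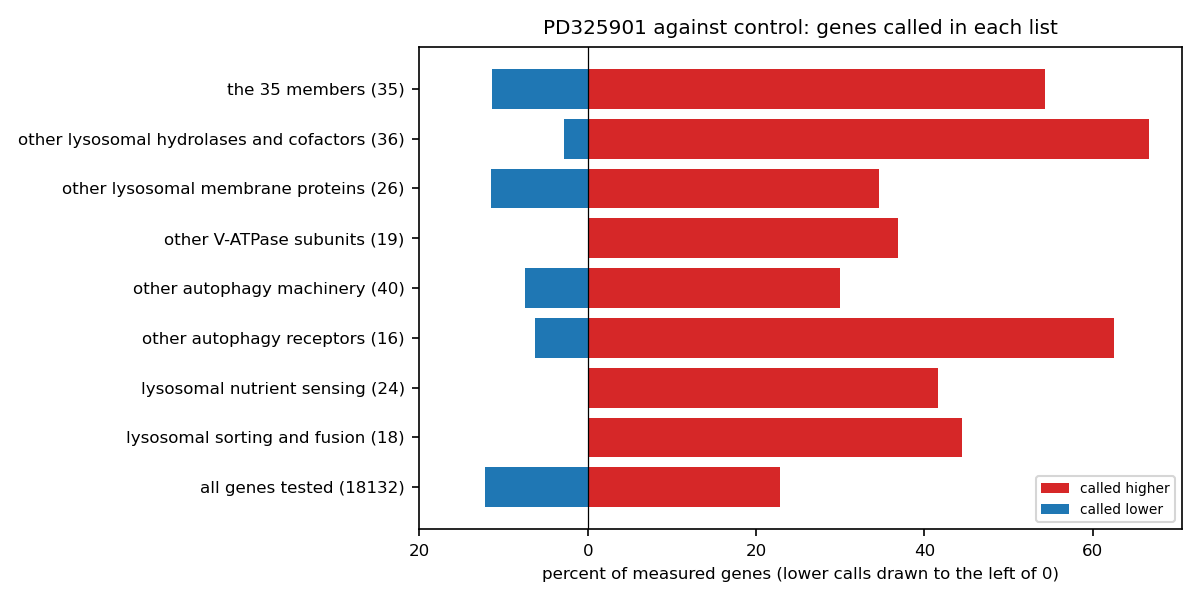
Percent of measured genes called higher (right of 0) and lower (left of 0) under PD325901 against control, for the 35 genes, 7 further lists and all genes tested, with the number of genes in brackets. The 35 genes stand at 54.3% higher, other hydrolases at 66.7% and all genes at 22.8%.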

How the data were processed

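Per the series design text and the submitters' processing notes, the authors processed the arrays with RMA (affy package), which corrects background, quantile-normalizes and summarises probes. The log2 values were used as deposited. Of 49395 probe sets, the 44988 to which the platform annotation gave a single gene were named, and 1832 with several genes and 2473 with none were not. The brightest probe set stood for its gene, giving 18132 genes. A name ending in x_at marks probes that may also bind other transcripts, which touches GABARAPL1, CLN3 and GLB1. For GABARAPL1 and CLN3, no probe set of another kind was above background on any array.

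Groups were compared with limma 3.58.1 (R 4.3.3; lmFit and eBayes, all 9 arrays, a coefficient per group, two-sided), with Benjamini-Hochberg adjustment over every gene and a threshold of 0.05 for a call. The script was checked on simulated data. SE and intervals come from that fit. For "at least N-fold", each array of the dimmer group counted at its own value or at background, whichever was higher. Arrays have no read depth, and their number limits the precision.

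All 35 genes are accounted for, and from each further list up to 3 called genes per inhibitor were named by absolute log2 change. Members and lists were chosen with earlier results of these data known. Alternatives were the mean of probe sets, no collapse, a filter at a mean of 5, trend and robust eBayes, array weights, 2 centrings, cyclic loess, only the groups compared, a replicate block, controls 1 and 2 or 3 and 4 alone, and leaving out each array. Promoter sequences are from RefSeq, assembly GRCh38.p14. The probe sets' own genome build was not given in the sources used.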

Additional observations from a re-analysis of the deposited data

Results flagged for a closer look

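CTSD in the control group had an array far from the others: control replicate 3 was at 7.86, and the nearest other control array at 7.28, a gap that was 0.859 of the range of the 4 controls, where 0.829 is the limit for 4 arrays. The PD325901 arrays of CTSD, at 8.66 or above, were higher than this array as well. Of 35 control groups looked at in this way this was the 1 that passed, and chance gives about 1 in 20.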

How the results depend on the processing

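For PD325901 against control the median log2 change of the 35 genes was 0.032 with arrays centred over genes and 0.18 with arrays centred over probe sets. The number called was between 18 and 24 with 1 array left out. It was 18 without PD325901 replicate 1, where 28.8% of all genes were called, and 24 without control replicate 1, where 41.1% were. For BB94 against control the number called was 1 with the mean of probe sets (MITF; 1.47% of all genes called) and 2 against control replicates 3 and 4 alone (CTSA and ATP6V0D1; 9.01% of all genes called), and 0 under the other 19 settings. The BB94 median was -0.14 with the mean of probe sets, 0.083 with arrays centred over probe sets, 0.049 against control replicates 1 and 2 alone and -0.14 against replicates 3 and 4 alone. For PD325901 against BB94 the median was 0.090 centred over genes, 0.20 centred over probe sets and 0.34 after cyclic loess, and between 0.36 and 0.49 with 1 array left out. ATP6V0D1 under PD325901 turned to -0.32 against control replicates 3 and 4 alone; the cause was not tested. Centring moves every gene of an array by the same amount, so these medians moved with that of all genes.

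Same-numbered arrays of different groups did not deviate together (correlations from -0.19 to 0.12), so the numbers were not taken as pairs. With the replicate block, 23 genes were called for PD325901 (32.8% of all genes), all of them among the 23 called without it. There were 0 for BB94 (0.888% of all genes) and 21 for PD325901 against BB94 (31.7% of all genes).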
